A study of Rattus norvegicus with 19 samples.

Results

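Atf3 is a transcription factor that is nearly silent in resting sensory neurons and is switched on when their axons are injured. It belongs to the basic leucine zipper proteins, which bind DNA as pairs, often with Jun. In dorsal root ganglia its induction is known to go along with neuropeptides such as galanin, vasoactive intestinal peptide and neuropeptide Y, and with growth-associated genes such as Sprr1a. The ganglia described here came from rats whose neighbouring nerves had been cut while their own nerves were spared, and they differed widely in Atf3. They were parted by the Atf3 level itself: an operated array with Atf3 above 8.5 on the deposited log2 scale was called Atf3-high, and any other operated array Atf3-low. Of the 14 operated arrays, 9 were Atf3-high and 5 Atf3-low, among 19 arrays in the series.

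All rats were adult female Sprague-Dawley rats, and each gave 1 ganglion, the T11 dorsal root ganglion, on 1 Affymetrix Rat Genome 230 2.0 array. In the operated rats the dorsal and lateral cutaneous nerves of T9, T10, T12 and T13 were transected unilaterally, so that skin served by intact T11 nerves borders denervated skin. Tissue was taken at day 7 (7 rats) or day 14 (7 rats), and 5 naive rats were never operated on. Effects of the operation itself cannot be told apart from those of losing the adjacent skin nerves. One more naive array, dropped in the submitters' quality control, is not analysed here. The question set by this division of the arrays is which other transcripts vary together with Atf3 among ganglia that underwent the same operation. Atf3-high and Atf3-low are not treatments of the study. A p-value below therefore measures variation together with Atf3 on the same arrays, and not an effect of surgery or of Atf3.

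Atf3 stood at 9.69, 11.15, 7.95, 7.28, 7.88, 9.18 and 10.17 in replicates 1 to 7 of day 7. It stood at 9.77, 8.33, 11.63, 9.92, 11.04, 9.68 and 8.12 in replicates 1 to 7 of day 14, and at 8.10, 8.17, 7.94, 8.44 and 8.17 in the naive rats. The Atf3-high arrays were thus replicates 1, 2, 6 and 7 of day 7 and replicates 1, 3, 4, 5 and 6 of day 14. The member just above the dividing value had 9.18 and the array just below it 8.33, and every Atf3-low array lay below the highest naive array. These values chose the classes and carry no test.

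**Figure D1:**
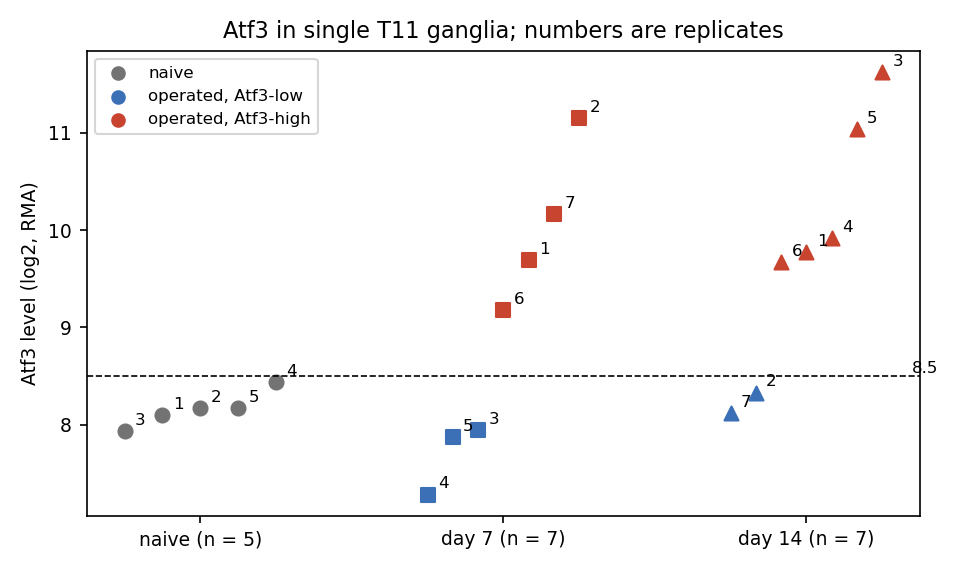
Deposited log2 level of Atf3 in each ganglion, by group, with the replicate number beside each point and the dividing value of 8.5 as a dashed line. The 5 Atf3-low operated arrays lie between 7.28 and 8.33, below or among the naive arrays, and the 9 Atf3-high arrays spread from 9.18 to 11.63.

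Sensory neuron transcripts were at similar high levels in all classes. The mean log2 levels of Prph, which encodes the neuronal filament peripherin, were 13.32, 13.25 and 13.26 in Atf3-high, Atf3-low and naive arrays. Those of Avil, which encodes advillin, were 12.75, 12.75 and 12.79, and those of Nefl, the light neurofilament subunit, 13.24, 13.23 and 13.29. A measure of RNA degradation and amplification, the gap between 3' and 5' probe sets of control genes, lay between 2.53 and 2.97 over the 19 arrays, with the classes overlapping. Skeletal muscle transcripts were high on some arrays: the mean level of 29 muscle genes ranged from 6.42 to 8.33 in Atf3-high, 6.38 to 7.54 in Atf3-low and 6.39 to 8.60 in naive arrays, with the peaks on day 7 replicate 7, day 14 replicate 2 and naive replicate 1. For arrays there is no depth to give, and precision is set by how many there are. The standard error of a class difference had a median of 0.076 log2 units. In whole ganglia, fewer cells of a type and less RNA per cell cannot be told apart.

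Across 31041 probe sets other than Atf3, 1 was higher in the Atf3-high arrays at an adjusted p under 0.05 (0.00322% of those tested), and 0 were lower (0.0%) (limma with day as covariate and Benjamini-Hochberg adjustment). At an unadjusted p under 0.05 there were 905 higher (2.92%) and 412 lower (1.33%), fewer together than the 1552 that chance would give. All 9 Atf3-high arrays lay above all 5 Atf3-low arrays in 27 probe sets (0.087%) and below them in 7 (0.0226%). With 9 arrays against 5 and 31041 probe sets, some would part in this way by chance. How many was not computed, so a lack of overlap below is a description only. A second fit used the Atf3 level itself in place of the classes, as a slope over the 14 operated arrays with day as covariate. There 65 probe sets rose with Atf3 (0.209% of those tested) and 2 fell (0.00644%), and the 65 included 53 probe sets of 51 named genes. The classes and the slope share the same arrays and the same Atf3 values, so neither is independent support for the other. The number rising depended on single arrays: 27 without day 7 replicate 2, 34 without day 14 replicate 3, 35 without day 14 replicate 7 and 42 without day 14 replicate 5.

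**Figure D2:**
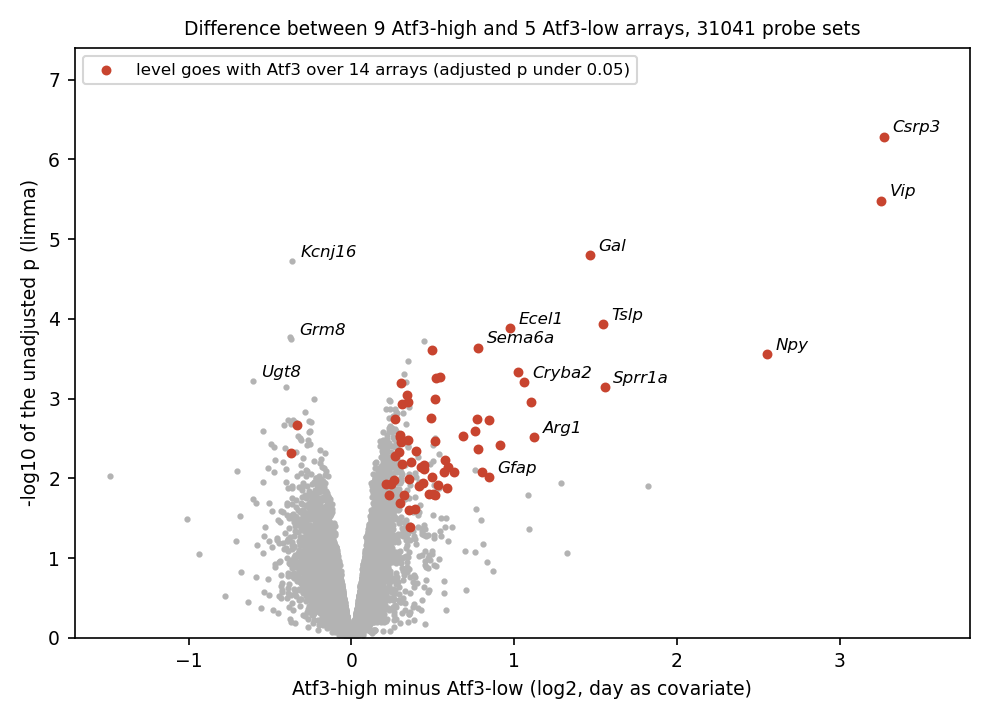
Log2 difference between 9 Atf3-high and 5 Atf3-low arrays against −log10 of the unadjusted limma p, 1 point per probe set, with the probe sets that rose or fell with the Atf3 level over 14 arrays in red. Csrp3, Vip and Npy show differences above 2.5 log2 units, and the red points lie almost all on the higher side.

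Csrp3, which encodes a LIM-domain protein best known from striated muscle, was the 1 transcript that rose between the classes. Its log2 level had a lowest, median and highest value of 7.16, 8.48 and 10.47 in the Atf3-high arrays. In the Atf3-low arrays it was 5.03, 4.96 and 5.06 in replicates 3, 4 and 5 of day 7 and 6.37 and 5.19 in replicates 2 and 7 of day 14. Naive arrays had 5.57, 5.27, 5.38, 4.71 and 4.74, so every Atf3-high array stood above every other array of the series. The difference was 3.27 ± 0.40 (SE) log2 units, 9.66-fold, with a limma adjusted p of 0.0161. Csrp3 also rose along the Atf3 scale, by 1.34 ± 0.08 (SE) log2 units per log2 unit of Atf3 over the 14 arrays (adjusted p = 4.49e-07).

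Within the naive and the Atf3-low arrays the array richest in muscle transcripts was also the highest in Csrp3: naive replicate 1 (muscle level 8.60) had 5.57, and day 14 replicate 2 (muscle level 7.54) had 6.37. Among the Atf3-high arrays day 7 replicate 7 was richest in muscle transcripts (8.33) and had 8.13 for Csrp3, below the class median. Without the 2 operated arrays high in muscle transcripts the difference was 3.49, with an adjusted p of 0.0846. It was 3.21 within day 7 and 3.35 within day 14. The class call was lost, at adjusted p values between 0.0526 and 0.178, when any of day 7 replicates 3, 4, 5 or 7 or day 14 replicates 2, 5 or 7 was left out, with differences between 2.999 and 3.46 over all fits without 1 array. With the letters that begin the animal codes as a block, whose meaning the labels do not give, it was 2.93 (adjusted p = 0.290). All operated arrays with code AK were Atf3-high, so there the code and Atf3 cannot be told apart.

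Neuropeptides of injured sensory neurons came next. Of 16 measured neuropeptide and receptor genes on the list for nerve injury, 10 lay higher in the Atf3-high arrays, where 57.6% of all genes did. The list had a median of 0.06 log2 units beside 0.02 over all 14216 genes. The list was split: 4 genes rose along the Atf3 scale (Vip, Gal, Npy and Ucn), where 0.359% of all genes did, while Galr1, a galanin receptor, Crh, corticotropin-releasing hormone, and Nts, neurotensin, had differences of -0.44, -0.34 and -0.23 that did not pass.

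Vip, which encodes vasoactive intestinal peptide, was 5.82, 4.77 and 5.97 in the Atf3-low replicates 3, 4 and 5 of day 7 and 5.94 and 5.26 in replicates 2 and 7 of day 14. In the Atf3-high arrays its lowest, median and highest levels were 7.57, 8.79 and 10.88, against 4.94 to 5.66 in naive arrays. No Atf3-high array overlapped any other, and the array lowest in Atf3 among them, day 7 replicate 6, was also lowest in Vip. The class difference was 3.26 ± 0.46 (SE) log2 units, or 9.55-fold, at a limma adjusted p of 0.0509, just outside the threshold. Per log2 unit of Atf3, Vip rose by 1.38 ± 0.08 (adjusted p = 3.31e-07).

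Gal, which encodes galanin, was much more even within each class. The 5 Atf3-low arrays had 9.12, 9.11, 9.32, 9.47 and 9.29, and naive arrays 8.81 to 9.32. The Atf3-high arrays fell into a lower set of 6, from 10.10 to 10.48, and a higher set of 3 at 11.38, 11.58 and 11.64. The higher set held day 7 replicate 2 and day 14 replicates 5 and 3, the arrays with Atf3 above 11. The class difference of 1.46 ± 0.24 (SE) log2 units, 2.76-fold, had an adjusted p of 0.145. The slope on Atf3 was 0.65 ± 0.03 (SE) with an adjusted p of 1.1e-07, the smallest of the fit.

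Npy, which encodes neuropeptide Y, did not follow the classes cleanly. Among Atf3-low arrays it was 6.88, 8.99 and 9.71 in replicates 3, 4 and 5 of day 7 and 7.58 and 7.39 in replicates 2 and 7 of day 14. Naive arrays had 6.48 to 7.66, so 2 day 7 ganglia with Atf3 below every naive array (7.28 and 7.88) had Npy above every naive array. The Atf3-high arrays had a lowest, median and highest level of 9.35, 10.30 and 12.38. The difference was 2.55 ± 0.55 (SE) log2 units, 1.73 within day 7 and 3.54 within day 14, with an adjusted p of 0.713. On the Atf3 scale Npy rose by 1.08 ± 0.17 per log2 unit (limma adjusted p = 0.00958), a call lost without day 7 replicate 2, day 14 replicate 3 or day 14 replicate 7 (adjusted p = 0.0668, 0.0621 and 0.0533).

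Ucn, which encodes urocortin, a peptide of the corticotropin-releasing family, was low on the arrays but its classes did not overlap. It was 5.30 to 5.72 in Atf3-low arrays and 5.88 to 7.41 in Atf3-high arrays, with the highest values in day 7 replicate 2 and day 14 replicate 3 (6.77). Its slope was 0.37 ± 0.05 (SE) per log2 unit of Atf3 (limma adjusted p = 0.00528).

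**Figure D3:**
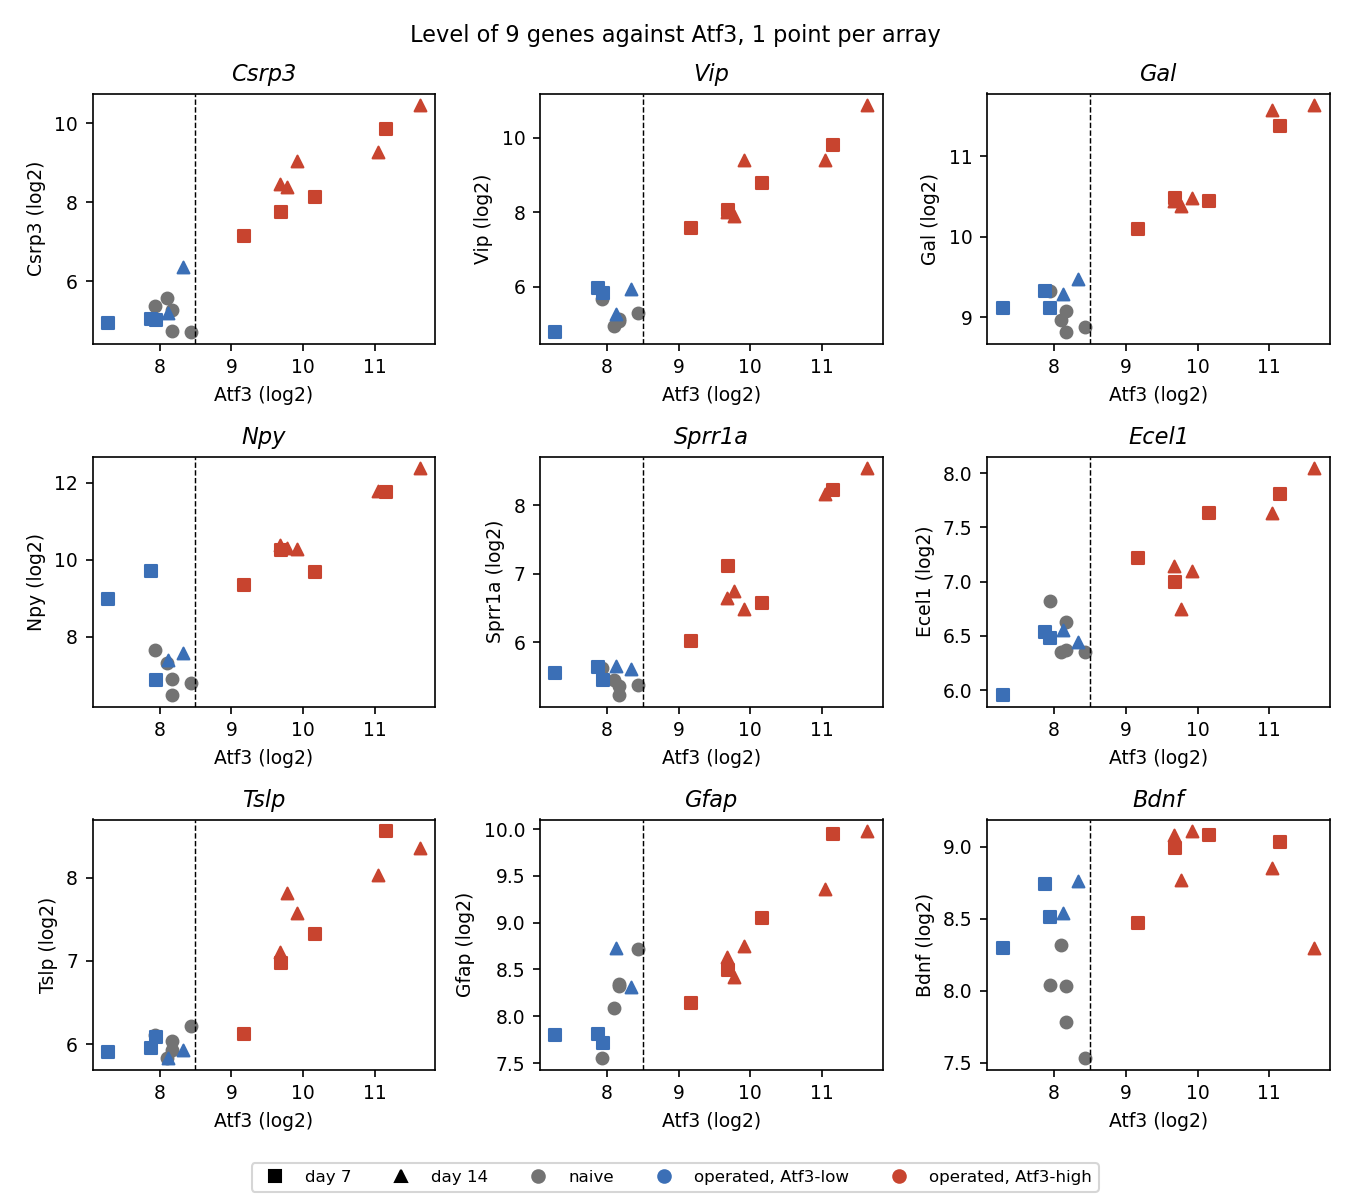
Log2 level of 9 genes against the log2 level of Atf3, 1 point per array, coloured by class and shaped by day, with the dividing value as a dashed line. Csrp3, Vip and Gal climb with Atf3. Below 8.5 Gal stays near the naive level, as does Csrp3 except on day 14 replicate 2 (6.37), and Vip passes every naive array on 3 Atf3-low arrays. For Npy 2 Atf3-low points stand high, and for Bdnf the array with the most Atf3 lies as low as the lowest Atf3-low array.

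Downstream genes of the axonal injury response formed the longest list. Of 59 measured injury effector genes, 51 lay higher in the Atf3-high arrays, where 57.6% of all genes did, and their median difference was 0.20 log2 units. Of these 1 passed between the classes (Csrp3), where 0.00703% of all genes did, and 22 were higher at an unadjusted p under 0.05, where 4.5% of all genes were. Along the Atf3 scale 13 rose, where 0.359% of all genes did: Ankrd1, Arg1, Csrp3, Ecel1, Flrt3, Gadd45a, Il24, Kif22, Sema6a, Sprr1a, Stmn4, Tgm1 and Timp1. With the animal code block 8 of the list rose on the Atf3 scale, where 34 of all 31041 probe sets did. The list was chosen with results from these arrays known, so its direction is not independent evidence.

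Sprr1a, a small proline-rich protein that appears in regrowing axons, was nearly flat below the dividing value. The Atf3-low arrays had 5.45, 5.55, 5.63, 5.61 and 5.65 and the naive arrays 5.22 to 5.62. Atf3-high arrays had a lowest, median and highest level of 6.01, 6.75 and 8.55, with no overlap, and the 3 arrays with Atf3 above 11 all exceeded 8. The difference was 1.56 ± 0.37 (SE) log2 units (adjusted p = 0.968), and the slope 0.76 ± 0.07 (SE) per log2 unit of Atf3 (limma adjusted p = 6.1e-05).

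Ecel1, a membrane metallopeptidase of neurons that is induced by nerve injury, was 6.48, 5.95, 6.54, 6.44 and 6.55 in the Atf3-low arrays. Atf3-high arrays ran from 6.75 through a median of 7.22 to 8.05, all above the Atf3-low arrays, and 8 of 9 above the highest naive array (6.82). A second probe set of Ecel1 also showed no overlap, with class means of 5.39 and 5.04. The slopes of the 2 probe sets were 0.45 ± 0.04 and 0.15 ± 0.03 (SE), at limma adjusted p values of 2.39e-05 and 0.0199.

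Tslp, an epithelial-type cytokine that acts on immune cells and sensory fibres, showed the same shape. It was 5.83 to 6.09 in Atf3-low, 5.83 to 6.22 in naive and 6.12 to 8.56 in Atf3-high arrays. Only day 7 replicate 6, the Atf3-high array nearest to the dividing value, was at the naive level (6.12), and the median of the class was 7.57. The class difference was 1.55 ± 0.30 (SE) log2 units (adjusted p = 0.645, and 0.0334 without that array), and the slope was 0.69 ± 0.07 (limma adjusted p = 1.45e-04).

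Several regulators and enzymes also rose on the Atf3 scale. Jun, the leucine zipper partner of Atf3, ran from 10.51 to 10.77 in Atf3-low and from 10.74 to 11.50 in Atf3-high arrays, a slope of 0.18 ± 0.03 (SE) and an adjusted p of 0.0207. Its call was lost without day 7 replicate 2 (0.164), day 14 replicate 2 (0.0562), 3 (0.116), 5 (0.065) or 7 (0.097), and the other 2 Jun probe sets had slopes of 0.13 each that did not pass (adjusted p = 0.0567 and 0.111). Arg1, which encodes arginase, rose with a slope of 0.54 ± 0.09 (SE) and an adjusted p of 0.0139, yet only 4 of 9 Atf3-high arrays exceeded the highest Atf3-low array, and it ranged from 6.34 to 7.91 in naive arrays. Without day 7 replicate 2, day 14 replicate 3 or day 14 replicate 7 the adjusted p for Arg1 was 0.0758, 0.0628 or 0.0526.

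Tgm1, a transglutaminase, had a slope of 0.48 ± 0.06 (SE) with an adjusted p of 0.00158, and Timp1, an inhibitor of matrix metalloproteinases, one of 0.21 ± 0.03 (0.00332). Gadd45a, a growth arrest and DNA damage gene, rose with a slope of 0.28 ± 0.05 and Ankrd1, a nuclear ankyrin repeat protein, with one of 0.42 ± 0.07 (limma adjusted p = 0.0304 and 0.0143). The Gadd45a call was lost without day 7 replicates 2 (0.19) or 3 (0.066) or day 14 replicates 3 (0.155), 5 (0.0883) or 7 (0.116), and that of Ankrd1 without day 7 replicate 2 (0.13). A further probe set of Ankrd1 had a slope of 0.06 and did not pass (0.713).

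Other transcripts that rose with Atf3 lay outside the injury lists or were singled out after their values were seen. Cryba2, a lens-type crystallin, was 5.36 to 5.74 in Atf3-low and 6.03 to 7.82 in Atf3-high arrays, a slope of 0.49 ± 0.06 (SE, limma adjusted p = 0.00131). Gabra5, a subunit of the GABA-A receptor, was 7.31, 7.30, 7.27, 7.26 and 7.03 in the Atf3-low arrays, 7.42 to 8.22 in the Atf3-high arrays and 6.71 to 6.98 in naive arrays. It was thus ordered in 3 steps without overlap, naive, Atf3-low and Atf3-high, and its slope on Atf3 was 0.22 ± 0.03 (SE, adjusted p = 7.12e-04). Of the probe sets of Sema6a, a transmembrane semaphorin, 2 had classes that did not overlap, with differences of 0.77 and 0.78 log2 units and slopes that passed (limma adjusted p = 5.77e-04 and 0.00551), and the other 4 differed by at most 0.048. Pvr, the poliovirus receptor homologue, had a slope of 0.36 ± 0.04 (SE, adjusted p = 3.53e-04), Flrt3, a membrane adhesion protein, one of 0.29 and Il24, a cytokine, one of 0.27. Spp1, which encodes osteopontin, was 9.68 to 10.28 in Atf3-low and 9.95 to 10.90 in Atf3-high arrays, a slope of 0.22 ± 0.04 (SE, limma adjusted p = 0.0283). That call was lost without day 7 replicates 2 (0.173) or 3 (0.0602) or day 14 replicates 3 (0.153), 5 (0.0883) or 7 (0.126). Of the 22 slopes described by the naming rule, 8 passed in every fit tried: those of Cryba2, Csrp3, Ecel1, Gabra5, Gal, Sprr1a, Tslp and Vip. With the animal code block the slopes of Ankrd1, Col14a1, Gadd45a, Gfap, Gzmb, Jun, Npy, RT1-DMa, Spp1, Stmn4 and Ucn missed the threshold, at limma adjusted p values from 0.0565 to 0.185.

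**Figure D4:**
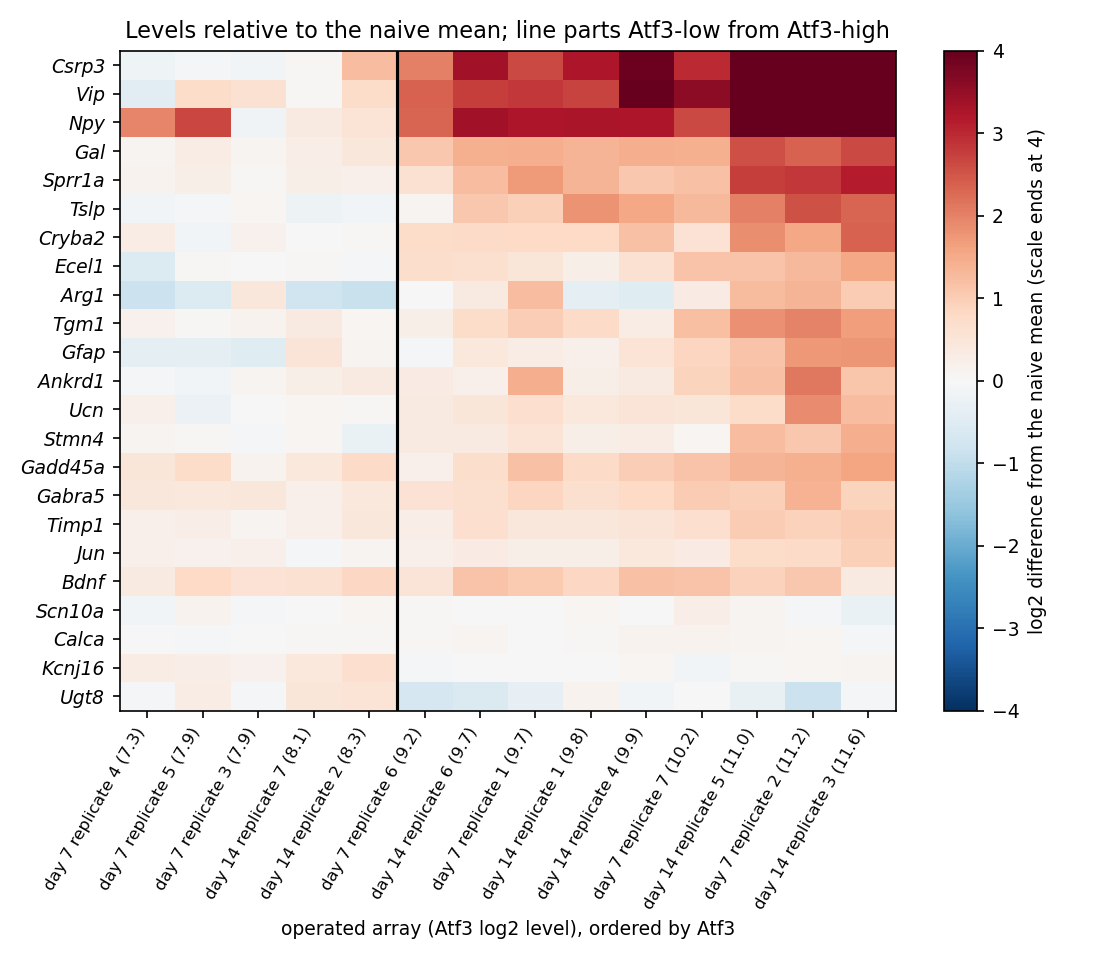
Log2 level minus the naive mean for 23 genes (rows) on the 14 operated arrays (columns), ordered from the lowest to the highest Atf3, with the black line between Atf3-low and Atf3-high and the colour scale ending at 4 log2 units. Right of the line the rows from Csrp3 to Gal are light to deep red. Those from Sprr1a to Ecel1 range from pale to red, and Tslp stays pale on day 7 replicate 6. Npy is also red on 2 Atf3-low arrays and Csrp3 is light red on the Atf3-low day 14 replicate 2, while Scn10a and Calca stay pale throughout.

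Promoters were read for the genes that rose on the Atf3 scale, because leucine zipper proteins such as Atf3 and Jun are known to bind the motifs TGACTCA and TGACGTCA. The window was the 250 bases before each RefSeq start in assembly GRCr8, and both strands were searched, so TGACTCA is also counted as TGAGTCA, while TGACGTCA reads the same on both strands. Neither motif contains the other. Of 51 genes 38 had a promoter in the RefSeq table. TGACTCA occurred in 4 of them (10.5%: Cryba2, Gzmb, Sprr1a and Srxn1), against 3.98% of all 27456 promoters and 3.46% of the 11734 of genes measured here. TGACGTCA occurred in 1 (2.63%, Ucn), against 1.7% of all promoters and 2.64% of measured ones. A match is a description of letters and shows neither binding nor its absence. Among the genes that were higher without overlap of the classes, 4 had a motif. The stretches of 3 follow, 5′ to 3′ on the gene's strand, with the motif in capitals. That of Gzmb, with a copy 151 bases before the start, is not shown. In Sprr1a 2 copies lie 117 and 147 bases before the start (chr2:180752676-180752802, minus strand), in Cryba2 the copy lies 94 bases before it (chr9:83899159-83899285, minus strand), and in Ucn 110 bases before it (chr6:30957916-30958043, plus strand).
Sprr1a: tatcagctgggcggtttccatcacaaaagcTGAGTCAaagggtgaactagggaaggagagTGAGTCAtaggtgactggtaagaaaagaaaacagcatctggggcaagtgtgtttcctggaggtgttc
Cryba2: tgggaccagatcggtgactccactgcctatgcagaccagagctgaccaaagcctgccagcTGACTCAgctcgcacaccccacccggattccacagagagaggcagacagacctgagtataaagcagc
Ucn: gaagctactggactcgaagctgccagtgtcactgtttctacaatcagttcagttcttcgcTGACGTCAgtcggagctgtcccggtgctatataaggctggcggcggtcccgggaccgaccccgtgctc

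Among the Atf3-high arrays alone, 37 probe sets (0.119% of those tested) rose with the amount of Atf3, and 0 fell (limma with day, where 1267 or 4.08% were higher and 1024 or 3.3% lower at an unadjusted p under 0.05). This fit was added after the data had been seen. It shared 23 probe sets with the 67 called over 14 arrays, 62.2% of the 37 and 34.3% of the 67. The 9 arrays are part of the 14 and carry the same Atf3 values, so neither fit is independent support for the other. Gfap, the intermediate filament of glia, had the clearest such slope among the named genes, 0.81 ± 0.06 (SE) per log2 unit of Atf3 (adjusted p = 0.00198). Its level rose from 8.14 in day 7 replicate 6 to 9.95 and 9.98 in day 7 replicate 2 and day 14 replicate 3, while the Atf3-low arrays reached 8.73 and overlapped. It passed without each of the 9 arrays in turn. Gal (0.68, adjusted p = 0.00709), Csrp3 (1.08, 0.0142), Npy (1.12, 0.0142), Sprr1a (1.05, 0.0142), Vip (1.20, 0.0327) and Jun (0.32, 0.0344) also rose within the class. These calls rested on single arrays. Without day 7 replicate 2 the limma adjusted p was 0.0889 for Gal, 0.111 for Csrp3, 0.153 for Npy and Sprr1a, 0.238 for Vip and 0.276 for Jun, and without day 14 replicate 3 it was 0.0665 for Gal, 0.108 for Csrp3, Npy and Sprr1a, and 0.203 for Vip and Jun. Without day 7 replicate 6 or day 14 replicate 6 it was 0.0611 and 0.0605 for Csrp3, 0.054 and 0.0545 for Npy, 0.0553 and 0.0605 for Sprr1a, 0.0895 and 0.115 for Vip, and 0.0749 and 0.113 for Jun. Without day 7 replicate 1 or day 14 replicate 1 it was 0.0652 and 0.0662 for Vip and 0.0652 and 0.0819 for Jun, and for Jun also 0.0722 and 0.0753 without day 14 replicates 4 and 5. With array weights and with trend and robust moderation that of Vip was 0.0897 and 0.0613. Crabp2, a retinoic acid binding protein, had a slope of 0.75 within the class (limma adjusted p = 0.00654), although its means in Atf3-high and Atf3-low arrays were 9.92 and 9.58. The count rested on the arrays richest in Atf3: it was 2 without day 14 replicate 3, 4 without day 7 replicate 2 and 1 without the 3 arrays highest in Atf3. It was also 8, 12, 14, 15 and 17 without day 14 replicate 6, day 7 replicate 6, day 14 replicate 1, day 7 replicate 1 and day 14 replicate 4. Without the 3 highest arrays the slope of each gene named for this class missed the threshold, at an adjusted p of 0.149 for Gfap and 0.365 for Gal.

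Many neuronal genes did not pass either test. Bdnf, the neurotrophin brain-derived neurotrophic factor, was 8.51, 8.30, 8.74, 8.76 and 8.54 in the Atf3-low arrays and had a lowest, median and highest level of 8.30, 8.99 and 9.11 in the Atf3-high arrays, against 7.53 to 8.32 in naive arrays. Of the 9 Atf3-high arrays 7 lay above every Atf3-low array, while day 14 replicate 3, with the most Atf3, shared the lowest value, 8.30, and 4 of 5 Atf3-low arrays stood above every naive array. Its class difference was 0.28 ± 0.14 (SE) log2 units and its slope 0.08 (limma adjusted p = 0.857). Calca, which encodes CGRP, Tac1, the precursor of substance P, and Scn10a, a nociceptor sodium channel, had differences of 0.06 ± 0.05, 0.13 ± 0.13 and 0.02 ± 0.08 log2 units. Ccl2, a chemokine, and Cacna2d1, a calcium channel subunit, came nearer, with differences of 0.50 ± 0.16 and 0.42 ± 0.14 log2 units and slopes whose limma adjusted p was 0.0596 and 0.0601. Gap43, the growth-associated protein, had 0.11 ± 0.06 and Sox11, a transcription factor of axon growth, 0.06 ± 0.09. Mag, a myelin glycoprotein, had -0.10 ± 0.12. None of these passed, and with classes set at the largest gap in Atf3, or within day 14 alone, the small differences of Calca, Tac1, Scn10a, Sox11 and Bdnf turned sign in at least 1 case.

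By list, the medians of neurofilaments (0.00 over 6 genes), sodium channels (-0.01 over 11), potassium channels (-0.01 over 46), calcium channels (-0.03 over 18) and nociceptor peptides and receptors (0.06 over 20) lay near the median of all genes. In these lists 0 genes rose on the Atf3 scale, where 0.359% of all genes did. Of 29 injury transcription factors besides Atf3, 20 lay higher, where 57.6% of all genes did, with a median of 0.06. Of these 1, Jun, rose along the scale, where 0.359% of all genes did. Stat3, a cytokine-activated factor, had differences of 0.15 and -0.11 in the probe sets of smallest p and highest mean, and neither passed. Of 27 growth cone genes 20 lay higher, beside the same 57.6% of all genes, with a median of 0.04. Stmn4, a microtubule-binding stathmin, was the 1 that rose on the Atf3 scale, by 0.33 ± 0.06 (SE) per log2 unit (limma adjusted p = 0.0206). Without day 7 replicate 2 or day 14 replicates 2, 3, 5 or 7 its adjusted p was 0.16, 0.0639, 0.116, 0.0602 or 0.0533.

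The remaining lists lay between -0.09 and 0.15, and 57.6% of all genes lay higher. Endothelium and pericyte genes had a median of -0.09 with 8 of 22 higher, erythrocyte genes 0.15 with 5 of 5, circadian clock genes 0.14 with 11 of 17 and skeletal muscle genes 0.10 with 24 of 29. Leaving out 1 array moved these medians from -0.031 to -0.179 for endothelium, -0.085 (without day 14 replicate 7) to 0.254 (without day 7 replicate 4 or 7) for erythrocytes, 0.0447 (without day 7 replicate 3) to 0.236 (without day 7 replicate 4) for the clock and -0.122 (without day 7 replicate 7) to 0.268 (without day 14 replicate 2) for muscle. Medians were 0.05 for chemokines, cytokines and complement, for the interferon response and for large neuron markers, 0.04 for oxidative phosphorylation and 0.03 for cholesterol and fatty acid synthesis. They were 0.02 for repair Schwann cells, GABA and opioid receptors, neurotrophins and the gp130 cytokine axis. For stress response, synaptic vesicle, cilium and central nervous system genes they lay at 0.00, and for satellite glia and adipocyte genes at -0.03. Among all of these, Gfap, Jun, Gabra5 and Spp1 were the members that rose on the Atf3 scale, where 0.359% of all genes did.

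**Figure D5:**
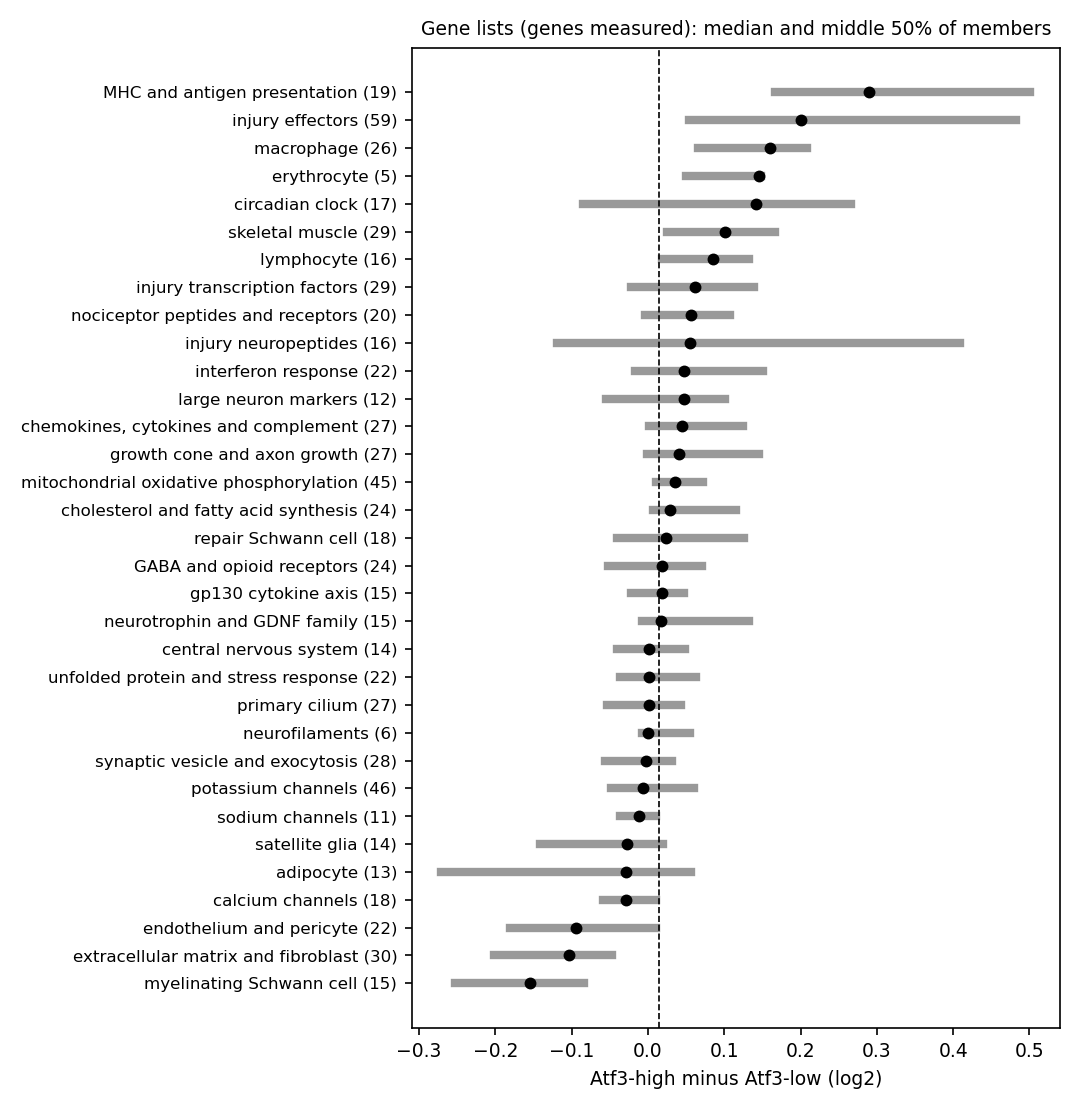
Median log2 difference between Atf3-high and Atf3-low arrays for each gene list (black points), with the middle 50% of its genes as a grey bar and the median of all genes as a dashed line. Antigen presentation (0.29), injury effectors (0.20) and macrophage genes (0.16) lie farthest to the right, and myelinating Schwann cell genes (-0.15) farthest to the left.

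Of 19 antigen presentation genes of the major histocompatibility complex (MHC) 17 were higher in the Atf3-high arrays, where 57.6% of all genes were. Their median difference was 0.29 log2 units. Leaving out 1 array moved that median from 0.249 (without day 7 replicate 2) to 0.446 (without day 7 replicate 4). It was 0.231 within day 7 and 0.497 within day 14. Of the 19 genes, 8 were higher at an unadjusted p under 0.05, where 4.5% of all genes were. RT1-DMa, a class II chaperone chain, rose on the Atf3 scale by 0.28 ± 0.05 (SE) per log2 unit (limma adjusted p = 0.0351). It was 8.28 to 8.48 in Atf3-low arrays and 8.02 to 9.66 in Atf3-high arrays, where day 7 replicate 6 was the lowest of all operated arrays and the other 8 lay above every Atf3-low array. This call was lost in 10 of the 14 fits that left out 1 array, at an adjusted p of up to 0.192 without day 7 replicate 2, the others being without day 7 replicates 1 (0.0521), 3 (0.0638) and 5 (0.0514) and day 14 replicates 1 (0.0524), 2 (0.0844), 3 (0.103), 5 (0.1), 6 (0.0506) and 7 (0.141). RT1-Bb and RT1-Ba, the chains of another class II molecule, had the largest differences of the list, 1.29 ± 0.45 and 1.08 ± 0.40 (SE) log2 units, which did not pass (limma adjusted p = 1 for each), while a further RT1-Ba probe set had -0.37 ± 0.77.

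The macrophage list depended on the day and on single arrays. Of 26 macrophage genes 21 were higher, where 57.6% of all genes were, with a median of 0.16. That median was 0.0744 without day 7 replicate 2, 0.0536 without day 14 replicate 7, 0.242 without day 7 replicate 4 and 0.269 without day 7 replicate 6. Within day 7, 10 of 26 were higher, with a median of -0.04, and within day 14 25 were, with a median of 0.32. The mean macrophage level ran from 7.27 to 8.48 in Atf3-high and from 7.69 to 8.28 in Atf3-low arrays. Day 7 replicate 6 was the lowest on both the macrophage and the MHC list (7.27 and 8.43), and day 7 replicate 2 the highest on both (8.48 and 9.53). The part of macrophage content in the MHC values was not tested. Of 16 lymphocyte genes 12 were higher, beside the same 57.6% of all genes, with a median of 0.09. Gzmb, granzyme B, was the 1 lymphocyte gene that rose on the Atf3 scale (0.24 ± 0.04 SE, limma adjusted p = 0.0343), where 0.359% of all genes did. Its level was 6.39 on day 7 replicate 2 and 5.23 to 5.59 on the other Atf3-high arrays. It kept an adjusted p under 0.05 in 5 of 14 fits without 1 array. Without day 7 replicates 1, 2, 3 and 5 this p was 0.0565, 0.0688, 0.0843 and 0.0633. Without day 14 replicates 1, 2, 5, 6 and 7 it was 0.0524, 0.0769, 0.0862, 0.051 and 0.0533. A further Gzmb probe set had a slope of 0.10 that did not pass (limma adjusted p = 0.402).

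The lists of myelinating Schwann cells and of connective tissue had more genes lower than higher, which turned when the classes were set elsewhere. Of 15 genes of myelinating Schwann cells 13 lay lower in the Atf3-high arrays, with a median of -0.15 log2 units, and 2 had an unadjusted p under 0.05, where 1.2% of all genes were that far lower: Ugt8, an enzyme of myelin lipid synthesis, and Mal, a myelin membrane protein. Of 30 genes of extracellular matrix and fibroblasts 26 lay lower, with a median of -0.10, while 57.6% of all genes lay higher. Within day 7 the medians were -0.265 for myelin and -0.185 for matrix genes, and within day 14 -0.048 and -0.019. With the replicate number as a block, 16 of the 30 matrix genes lay higher, with a median of 0.009, and the myelin median was -0.098. When classes were set at the largest gap in Atf3, which parts the 3 arrays above 11 from the other 11 operated arrays, 12 of the 15 myelin genes and 25 of the 30 matrix genes lay higher, with medians of 0.08 and 0.12. Timp1 was the 1 gene of the matrix list that rose on the Atf3 scale, where 0.359% of all genes did. One probe set of Col14a1, a fibril-associated collagen, fell on the Atf3 scale by 0.18 ± 0.03 (SE) per log2 unit (limma adjusted p = 0.0294). It did not pass without day 7 replicates 2 (0.222), 3 (0.0604) or 4 (0.0851) or day 14 replicates 3 (0.155) or 7 (0.0943), and the other Col14a1 probe set had -0.19 (0.0636).

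No transcript passed as lower between the classes. The 5 named genes of smallest p on that side were Kcnj16, Grm8, Ugt8, Grk3 and Klf12. Kcnj16, a potassium channel subunit, was 5.78, 5.91, 5.87, 6.27 and 6.02 in the Atf3-low arrays and 5.50 to 5.73 in the Atf3-high arrays, without overlap. Naive arrays had 5.41 to 5.80, so it was the Atf3-low arrays that stood apart, 4 of 5 above every naive array. Its difference was -0.37 ± 0.06 (SE) log2 units at a limma adjusted p of 0.145, and it showed no slope past the threshold on Atf3 (0.304). Klf12 and Grk3, a transcription factor and a receptor kinase, were above every naive array in all 5 Atf3-low arrays, and in 7 of 9 Atf3-high arrays for Grk3 and 4 of 9 for Klf12, with class differences of -0.28 ± 0.07 and -0.23 ± 0.06 log2 units that did not pass. A second probe set of Kcnj16 differed by 0.026, one of Klf12 by -0.0043 and one of Ugt8 by -0.041. Further probe sets of Grm8 differed by 0.070 (that of highest mean) and -0.19. On the Atf3 scale Gpc6, Htr1d, Mtm1 and Slc25a15 were the named genes of smallest p on the falling side after Col14a1, and none passed (limma adjusted p from 0.0976 to 0.157).

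The Atf3-low arrays differed in how they stood to the naive arrays from gene to gene. None exceeded the highest naive array for Arg1, Tslp, Ecel1, Ucn, RT1-DMa or Jun, although for Jun that limit is naive replicate 2 (10.94), and all 5 (10.51 to 10.77) lay above the other 4 naive arrays (up to 10.50). Of the 5, 1 exceeded every naive array for Csrp3, Gal, Cryba2, Gfap and Tgm1, 2 did for Npy, Sprr1a, Stmn4, Ankrd1 and Gzmb, and 3 for Vip and Spp1. All 5 did for Gabra5 and Timp1 and 4 for Gadd45a, as for Bdnf. These counts are descriptions, since Atf3-low is not a group of the study.

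Whether the class difference itself depended on the day was asked with an interaction term. At an adjusted p under 0.05, 0 probe sets passed (0.0% of those tested), and at an unadjusted p under 0.05 there were 410 (1.32%) with a larger difference at day 14 and 338 (1.09%) with a smaller one (limma). With 2 Atf3-low arrays at day 14, the term had little precision. Without day 7 replicate 3, 7 and 1 passed. Vip differed by 3.03 log2 units within day 7 and by 3.52 within day 14, Gal by 1.42 and 1.52, Sprr1a by 1.44 and 1.69 and Ankrd1 by 1.22 and 0.31.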

How the data were processed

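Expression was measured on 19 arrays of single T11 ganglia, 1 rat each, after 2 rounds of linear amplification per the labels' protocols. The deposited values are log2 levels per probe set, between 3.48 and 14.02. RMA and limma are named in the submitters' processing notes, without versions. RMA brings all arrays close to one distribution: medians lay between 6.702 and 6.745 and interquartile ranges between 3.58 and 3.85. A shift shared by most transcripts therefore cannot be seen. Of 31099 probe sets 57 controls and the Atf3 probe set were left out. Platform gene names were updated through RefSeq identifiers of GRCr8: 20826 probe sets had 1 symbol, 436 several and 9780 none, and those with several were not named.

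Models were fitted to the 14 operated arrays with lmFit and eBayes of limma 3.58.1 (R 4.3.3), with day as covariate, Benjamini-Hochberg adjustment over all probe sets and a threshold of 0.05. The slope replaced the class by the Atf3 level. Gene lists (33, with 677 of 762 genes measured) used the probe set of highest mean per gene. The rule for named genes, applied to both fits, took up to 12 rises and falls past the threshold, at least 5 per direction by smallest p, up to 4 passing members of each list and a fixed set of 20 genes. Members, lists, tests and rule were chosen with earlier results of these data known. Alternatives covered dim probe sets, normalization, moderation, weights, covariates, blocks, classes and left-out arrays. The fits were tested on simulated data. Plots used Python 3.11.15, pandas 2.3.3, numpy 2.4.6 and matplotlib 3.10.9.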

Additional observations from a re-analysis of the deposited data

Results flagged for a closer look

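In 9 of 165 class and gene or list combinations 1 array stood far from the rest of its class; chance gives about 1 in 20, or 8.2. Among Atf3-high arrays, day 7 replicate 2 was highest in Gzmb (6.39, next 5.59) and Sox11 (5.35, next 5.06), and day 7 replicate 7 in the skeletal muscle list (8.33, next 6.96). Among Atf3-low arrays, day 7 replicate 3 was highest in Arg1 (7.62, next 6.62) and day 14 replicate 2 in Csrp3 (6.37, next 5.19). Day 7 replicate 4 was lowest in Ecel1 (5.95, next 6.44) and day 14 replicate 7 in Gabra5 (7.03, next 7.26). Among naive arrays, replicate 2 was highest in Jun (10.94, next 10.5) and replicate 1 in the skeletal muscle list (8.60, next 6.58).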

How the results depend on the processing

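Between the classes 1 probe set was higher and 0 lower. The count higher was 2 with dim probe sets left out, with median centring, with array weights, without the day covariate and with 1 probe set per gene. It was 3 with all 19 arrays, and 0 with trend and robust moderation, with the 2 muscle-rich arrays left out, with the animal code block, within day 7 alone and within day 14 alone. The Atf3 level as a continuous term gave 65 higher and 2 lower, and classes at the largest gap in Atf3 gave 137 higher and 45 lower; the cause was not tested. Leaving out 1 array gave 0 to 3 higher and 0 lower.

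All alternatives to the slopes were added after seeing the data. Over 14 arrays the slope gave 65 higher and 2 lower: 34 and 0 with the animal code block, and 27 to 87 and 0 to 4 without 1 array. The 2 lower became 1 without the day covariate and with 1 probe set per gene. Over the 9 Atf3-high arrays 37 were higher and 0 lower. There were 23 higher with array weights and with the 3' minus 5' covariate, and 1 without the 3 arrays highest in Atf3, where fewer arrays remain. One was lower with trend and robust moderation, without the muscle-rich arrays and with 1 probe set per gene, and 2 without the day covariate; leaving out 1 array gave 2 to 40 higher and 0 to 1 lower. The interaction gave 0 to 7 and 0 to 1 without 1 array.

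The labels number the replicates of both days 1 to 7, but same-numbered arrays did not deviate together (correlations -0.26 to 0.28), and 2 of 14 arrays correlated best with their own number. With the replicate block 8 probe sets were higher between the classes, and the slope over 14 arrays gave 26 higher and 0 lower.

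Of 772 class differences of named genes under other settings 704 kept their direction and side of the threshold. Only Csrp3 had passed, so for the other genes keeping their side meant failing again. Csrp3 lost the threshold in 6 of these settings, 45 differences newly passed and 17 turned sign. With classes at the largest gap Csrp3 differed by 2.80 log2 units and was not among the probe sets called (limma adjusted p = 0.163). With trend and robust moderation its limma adjusted p was 0.426. Of 262 slopes over 14 arrays 230 kept direction and side, and 32 lost the threshold. Without 1 array, 51 of 308 slopes over 14 arrays and 51 of 90 over the Atf3-high arrays lost it. Without the day covariate the slopes of Ankrd1, Arg1, Col14a1 and Gzmb missed the threshold (limma adjusted p = 0.0612, 0.0839, 0.161 and 0.0638). The differences that turned sign follow, in log2 units. With classes at the largest gap these were Bdnf (-0.043), Calca (-0.0043), Csf1 (-0.074 for the probe set of highest mean, while that of smallest p had 0.40 with a limma adjusted p of 0.0226), Mag (0.20), Scn10a (-0.12), Tac1 (-0.15) and Trpv1 (-0.15 and -0.069). With the continuous term they were Mag (0.0026), Scn10a (-0.010) and Trpv1 (-0.0050). Within day 14 they were Mag (0.094), Scn10a (-0.045), Sox11 (-0.036) and Tac1 (-0.10). Scn10a was -0.000201 after renormalization and Sox11 -0.014 with the animal code block, and Cryba2 had a slope of -0.043 over the Atf3-high arrays without the highest 3. Leave-one-out ranges crossed 0 for Mag (-0.18 to 0.0031), Scn10a (-0.023 to 0.050) and Sox11 (-0.013 to 0.10).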
